A study of Mus musculus with 10 samples.

Results

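The transcripts of 10 nuclear regulators of the megakaryocyte lineage were followed in platelets, the blood cells without nuclei that bud from megakaryocytes. The members, Nfe2, Gata1, Gfi1b, Fli1, Mef2c, Runx1, Tal1, Zfpm1, Mafg and Lyl1, were chosen by symbol, and all 10 were rows among the 23420 genes of the deposited table. Platelets were sorted from the peripheral blood of adult mice into a fraction with the red fluorescent reporter Tomato and a fraction without it. Each fraction gave 5 libraries, numbered 1 to 5, made by amplification of polyadenylated RNA with the Smart-seq+ protocol. Nothing is said of the gene that drives the reporter, the mouse strain or whether a replicate was 1 animal or a pool (not given in the sources used here). Because of this, every p-value is set against a spread between libraries that may be technical only.

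Megakaryocytes arise from stem and progenitor cells under a small set of DNA-binding proteins that act together. GATA1 with its cofactor FOG1 (encoded by Zfpm1), the helix-loop-helix proteins TAL1 and LYL1, RUNX1 and the ETS factor FLI1 occupy the enhancers of platelet genes. GFI1B represses alternative programmes, and NF-E2, a dimer of the product of Nfe2 with a small Maf protein such as MAFG, drives the last steps of platelet release. Platelets have no nucleus, so transcripts of these genes inside platelets are taken to be carried over from the parent megakaryocyte. The part of other cells in the sorted fractions was not tested.

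Tal1 and Runx1 had counts in exactly the same 5 libraries, which were also the 5 with the most detected genes. They were picked for that shared set, and the bases before their start sites are shown with those of Gfi1b, which had a different set. A link between the set and these bases was not tested. RefSeq windows (build GRCm38.p6) were matched for 8 of the 10 members, all but Nfe2 and Fli1. Each sequence is the 250 bases before a transcription start, written 5′ to 3′ on the strand of the gene. Capitals mark matches on either strand to GATAA (GATA factors), TGTGGT (RUNX), CCGGAA (ETS), CANNTG (E-box of helix-loop-helix proteins) or TGAGTCA (NF-E2 and AP-1). No 2 matches overlapped in these windows.
Tal1, first start (chr4:115056176-115056425, plus strand): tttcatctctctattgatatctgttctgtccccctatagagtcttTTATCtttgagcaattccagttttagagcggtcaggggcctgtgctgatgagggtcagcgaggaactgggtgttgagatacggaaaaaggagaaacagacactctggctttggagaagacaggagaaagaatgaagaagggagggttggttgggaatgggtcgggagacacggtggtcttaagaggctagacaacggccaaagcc
Runx1, distal start (chr16:92826075-92826324, minus strand): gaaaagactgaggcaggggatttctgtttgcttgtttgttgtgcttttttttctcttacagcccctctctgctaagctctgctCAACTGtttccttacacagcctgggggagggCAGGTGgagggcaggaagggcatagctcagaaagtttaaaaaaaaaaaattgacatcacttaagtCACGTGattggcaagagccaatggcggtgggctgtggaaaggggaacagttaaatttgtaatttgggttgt
Runx1, proximal start (chr16:92697330-92697579, minus strand): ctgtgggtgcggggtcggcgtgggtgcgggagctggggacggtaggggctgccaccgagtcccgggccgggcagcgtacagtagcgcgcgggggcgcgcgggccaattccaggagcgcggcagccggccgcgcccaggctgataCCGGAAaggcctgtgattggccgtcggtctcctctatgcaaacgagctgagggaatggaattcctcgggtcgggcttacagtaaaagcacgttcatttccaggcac
Gfi1b (chr2:28621983-28622232, minus strand): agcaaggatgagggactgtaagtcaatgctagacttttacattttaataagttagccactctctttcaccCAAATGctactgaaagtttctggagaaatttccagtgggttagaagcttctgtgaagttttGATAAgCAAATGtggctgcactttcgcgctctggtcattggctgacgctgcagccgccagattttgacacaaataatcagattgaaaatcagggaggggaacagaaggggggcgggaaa

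The window of the first Tal1 start held 1 match to the GATA letters, 205 to 201 bases before the start, and the Gfi1b window held 1 at 119 to 115 bases. The window of the second Tal1 start (chr4:115057561-115057810, plus strand), not printed, held no match to any of the 5 motifs. The distal Runx1 window held 3 E-box matches and the proximal window 1 ETS match. Over the 12 windows of the 8 matched members, GATAA was found in 3, CCGGAA in 2 and CANNTG in 7, and TGTGGT and TGAGTCA in 0. Among 32851 windows of the same length, these letters were found in 22.6% for GATAA, 12.0% for CCGGAA, 66.2% for CANNTG, 14.05% for TGTGGT and 4.46% for TGAGTCA. These are matches of letters and do not show binding.

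Total counts ranged from 5.41 to 16.2 M per library (M, 1000000 counts), and a level in CPM is a gene's count per 1000000 counts of its library. Of 4692 genes with a count in any library, single libraries held 807 to 2450. The 3 libraries with under 1000 genes were Tomato- replicates 1, 2 and 5, and the 2 with the most were Tomato+ replicate 5 and Tomato- replicate 4. Platelet transcripts, taken as a sum, were abundant in every library. Each of the 14 platelet markers had counts in at least 1 library. Their sum was 63483 ± 7568 CPM over the Tomato+ libraries and 67112 ± 4476 CPM over the Tomato- libraries (mean ± SD, n = 5 each). Single markers could be missing, and Selp had counts in only 1 library of each fraction. Gp1ba had 1.17 and 2.77 CPM in Tomato+ replicates 2 and 3, and 0.245 and 0.185 CPM in Tomato- replicates 1 and 5, against up to 1650 CPM elsewhere. Markers of B cells and of stem and progenitor cells were at 0 in all libraries.

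One member, Nfe2, was a regular and abundant platelet transcript, and the other 9 were found in some libraries and missing from others. A member was counted as detected at 1 count or more. Nfe2 was detected in 9 libraries, Mafg in 7, Fli1 in 6, Gfi1b, Tal1, Mef2c and Runx1 in 5 each, Gata1 and Lyl1 in 3 each and Zfpm1 in 1. The median over the members was 5 libraries, against 2 over the 4692 genes with any count. No member was detected in all 10 libraries, as 264 genes were. In bulk RNA, fewer platelets with a transcript and fewer copies per platelet cannot be told apart.

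**Figure D1:**
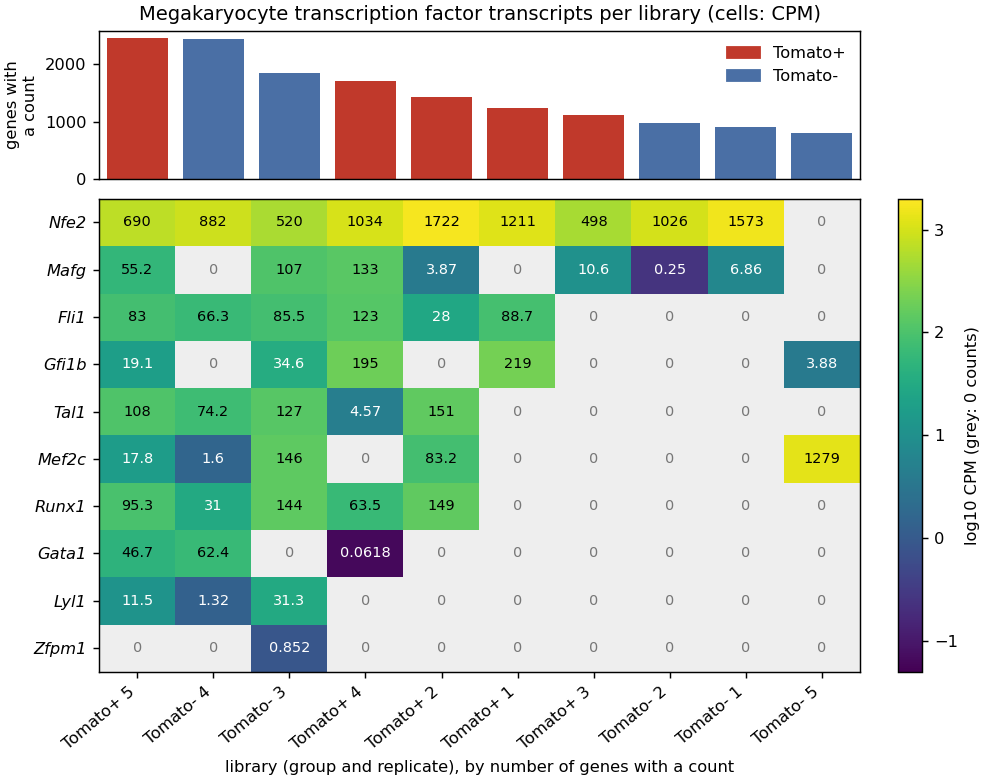
CPM of the 10 members (rows) in each library (columns, ordered by the number of genes with a count, which the bars above show; red, Tomato+; blue, Tomato-); colour is log10 CPM and grey marks 0 counts. Nfe2 fills 9 of 10 columns, while the other rows fill mainly the 5 columns on the left.

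The 5 libraries with the most genes, Tomato+ replicates 2, 4 and 5 and Tomato- replicates 3 and 4, held 33 of the 40 detections of the 9 members other than Nfe2 (82.5%). Over all genes, the same libraries held 66.1% of detections. This split by gene number was chosen after the values were seen and does not follow the sorted fractions. Tomato+ replicate 5 and Tomato- replicate 3 each held 9 of the 10 members, Tomato+ replicate 4 and Tomato- replicate 4 held 7, and Tomato+ replicate 2 held 6. Tomato+ replicate 1 held 3, and Tomato+ replicate 3 and Tomato- replicates 1, 2 and 5 held 2 each. The part of library complexity in the detection of members was not tested.

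Gata1 encodes the zinc finger factor that controls both megakaryocyte and red cell genes, and Zfpm1 encodes FOG1, which binds it. Gata1 lies on the minus strand of chromosome X (7959260 to 7978071 in GRCm38, the build of all positions here). It had 46.7 CPM in Tomato+ replicate 5 and 62.4 CPM in Tomato- replicate 4, from 536 and 661 counts. Tomato+ replicate 4 held 1 count (0.0618 CPM, 95% Wilson interval 0.0109 to 0.350), and the other 7 libraries held none. Each fraction thus had 1 library with more than a trace of Gata1, and these 2 libraries were the ones with the most detected genes.

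Erythroid markers stood beside Gata1 in those 2 libraries, and so did single markers of other cell types. Of 11 erythroid markers in the table, 3 had counts in Tomato+ replicate 5 and 4 in Tomato- replicate 4, against 1 or 2 in every other library. Beta-s, a haemoglobin beta row, stood at 338 and 3257 CPM in them, and 1.38 to 696 CPM elsewhere. Bpgm, the bisphosphoglycerate mutase of red cells, had 110 and 82.9 CPM there and 0 elsewhere. Epor, the erythropoietin receptor, had 60.6 and 69.5 CPM there and 0 elsewhere, and is named after its values were seen. The markers Hba-a1, Hba-a2, Klf1, Slc4a1, Tfrc and Car2 were at 0 in all 10 libraries. The pattern was not limited to erythroid markers. Selp, a platelet marker, had 364 CPM in Tomato+ replicate 5, 24.5 CPM in Tomato- replicate 4 and 0 elsewhere. Hdc, a mast cell and basophil marker, had 40.6 and 63.0 CPM in the same 2 libraries and 0 elsewhere. Of 636 genes with 10 counts or more in exactly 2 libraries, 134 had them in this pair, the most of any of 45 pairs (median 7). The part of red cell RNA in the Gata1 counts was not tested.

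Zfpm1 (chromosome 8, 122282141 to 122337251) was the least detected member. It had 9 counts in Tomato- replicate 3 (0.852 CPM, 95% Wilson interval 0.448 to 1.62) and 0 in the other 9 libraries. A count of 0 allows up to 3 counts, or 0.185 to 0.554 CPM by library. Gata1 and Zfpm1 were detected together in 0 libraries.

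Tal1 and Lyl1 encode related helix-loop-helix proteins that can replace each other in part in adult blood formation. Tal1 (chromosome 4, 115056426 to 115071755, plus strand) had 151, 4.57 and 108 CPM in Tomato+ replicates 2, 4 and 5, and 127 and 74.2 CPM in Tomato- replicates 3 and 4. It was at 0 in the other 5 libraries. Lyl1 (chromosome 8, 84701457 to 84704715) had 11.5 CPM in Tomato+ replicate 5, 31.3 CPM in Tomato- replicate 3 and 1.32 CPM in Tomato- replicate 4. All 3 libraries with Lyl1 also held Tal1, and Tal1 was the higher of the pair in each, also per kb of exon. Per kb of annotated exon (CPM divided by the joined exon length), the mean over 10 libraries was 10.6 for Tal1 and 2.45 for Lyl1, each with an SD larger than the mean.

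Runx1 encodes the DNA-binding subunit of core-binding factor, whose loss in the adult lowers platelet number. Runx1 (chromosome 16, 92601466 to 92826149, minus strand) had 149, 63.5 and 95.3 CPM in Tomato+ replicates 2, 4 and 5, and 144 and 31.0 CPM in Tomato- replicates 3 and 4. Where it was detected, its highest level was 4.81 times its lowest, a narrower range than that of Tal1 (33.1 times). The shared set of Tal1 and Runx1 is the 5 libraries with the most detected genes. Of 229 genes with counts in exactly 5 libraries, 25 (10.9%), these 2 included, had this set, the most common of 88 sets seen.

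Fli1 encodes an ETS factor that sustains late platelet genes such as those of the von Willebrand factor receptor. Fli1 (chromosome 9, 32422204 to 32542861, minus strand) had 88.7, 28.04, 123 and 83.0 CPM in Tomato+ replicates 1, 2, 4 and 5, and 0 in replicate 3. In Tomato- it had 85.5 and 66.3 CPM in replicates 3 and 4, and 0 in replicates 1, 2 and 5. Its 6 libraries were the 5 that held Tal1 and Runx1 and Tomato+ replicate 1. Among detected libraries its levels spanned 4.39 times.

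Gfi1b encodes a zinc finger repressor needed for megakaryocyte maturation. Gfi1b (chromosome 2, 28609450 to 28621982, minus strand) had 219, 195 and 19.1 CPM in Tomato+ replicates 1, 4 and 5, and 0 in replicates 2 and 3. In Tomato- it had 34.6 CPM in replicate 3 and 3.88 CPM in replicate 5, and 0 in the other 3. The 2 highest libraries were Tomato+, and the fractions overlapped, with Tomato- replicate 3 above Tomato+ replicate 5. Gfi1b shared 3 of its 5 libraries with Runx1.

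Nfe2 encodes the larger subunit of NF-E2, which is found mainly in megakaryocytes and red cell precursors. Nfe2 (chromosome 15, 103248212 to 103258403, minus strand) had 1211, 1722, 498, 1034 and 690 CPM in Tomato+ replicates 1 to 5. In Tomato- replicates 1 to 4 it had 1573, 1026, 520 and 882 CPM, and in replicate 5 it had 0 counts (limit of 3 counts, 0.554 CPM). Apart from that library the fractions covered much the same range, and the highest level was 3.46 times the lowest. By CPM, which favours long transcripts, Nfe2 ranked between 80 and 324 in the 9 libraries, above 71.0 to 94.4% of the genes detected in each.

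Nfe2 made up most of the summed counts of the members in 8 libraries. Summed over the 10 members, the Tomato+ libraries had 1369 ± 601 CPM and the Tomato- libraries 1241 ± 212 CPM. Nfe2 held 61.2 to 97.9% of that sum in the Tomato+ libraries, and 43.5 to 99.98% in Tomato- replicates 1 to 4. Without Nfe2 the other 9 members had 338 ± 198 and 441 ± 545 CPM. In Tomato- replicate 2 they had 0.250 CPM in all, and in Tomato- replicate 5 they had 1282 CPM.

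Mafg encodes a small Maf protein, the partner that NF-E2 needs to bind DNA. Mafg (chromosome 11, 120625117 to 120633600, minus strand) had 0, 3.87, 10.6, 133 and 55.2 CPM in Tomato+ replicates 1 to 5. In Tomato- replicates 1 to 3 it had 6.86, 0.250 and 107 CPM, and it was at 0 in replicates 4 and 5. The value of 0.250 CPM rests on 2 counts (95% Wilson interval 0.0686 to 0.912). All 7 libraries with Mafg also held Nfe2. Sirt7, a deacetylase gene on the same strand, shares 124 exon bases with Mafg (2.21% of the Mafg exons). Sirt7 had 757 counts in Tomato- replicate 4 and 0 in every other library, so Mafg and Sirt7 were never counted in the same library.

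Mef2c encodes a MADS box factor that acts in megakaryocytes as well as in muscle, neurons and B cells. Mef2c (chromosome 13, 83504034 to 83667080, plus strand) had 83.2 and 17.8 CPM in Tomato+ replicates 2 and 5, and 0 in the other 3. In Tomato- it had 146, 1.604 and 1279 CPM in replicates 3, 4 and 5, and 0 in replicates 1 and 2. The level in Tomato- replicate 5 came from 6919 counts and was 83.7% of the summed CPM of Mef2c over all libraries. That library had the fewest detected genes and was the one without Nfe2. Without it, the Tomato- mean of Mef2c was 36.9 CPM in place of 285 CPM.

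**Figure D2:**
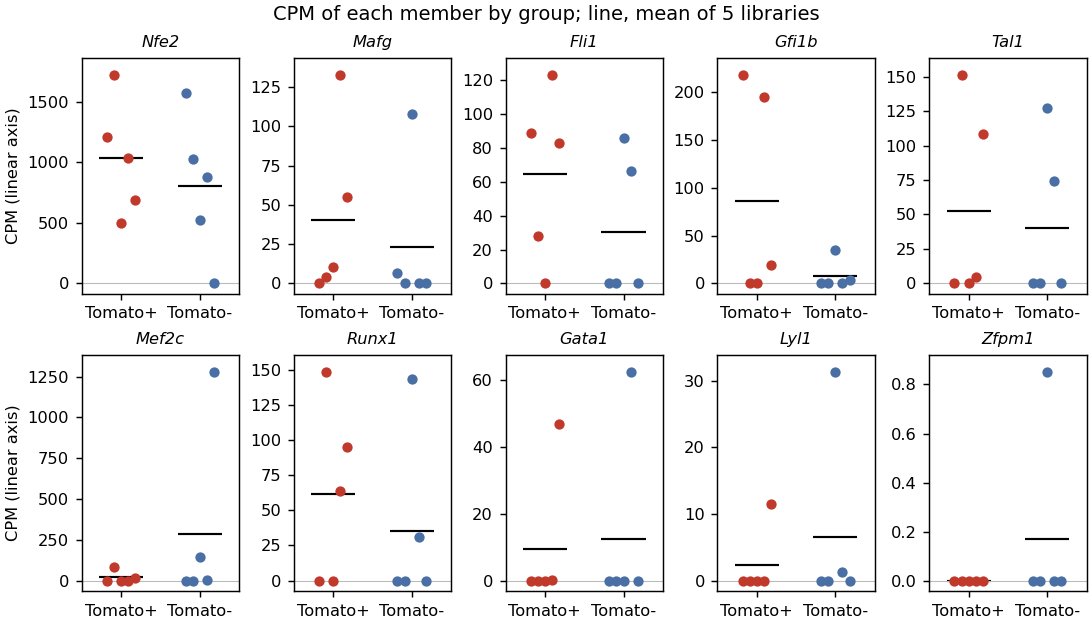
CPM of each member in the 5 Tomato+ (red) and 5 Tomato- (blue) libraries on linear axes that differ between panels; the horizontal line is the mean of 5 libraries. The fractions overlap in all 10 panels, and single libraries stand far above the rest for Mef2c, Gata1, Lyl1 and Zfpm1.

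Ordered by the mean over 10 libraries per kb of exon, Nfe2 stood first at 306 ± 173 CPM per kb (SD, n = 10), followed by Gfi1b (25.8 ± 46.5), Fli1 (13.6 ± 13.5), Tal1 (10.6 ± 14.2) and Mef2c (9.72 ± 25.4). Mafg (5.65 ± 8.88), Gata1 (4.48 ± 9.55), Runx1 (4.01 ± 5.08), Lyl1 (2.45 ± 5.62) and Zfpm1 (0.0243 ± 0.0769) came after them. Nfe2 was above Gfi1b by more than the larger of the 2 SDs and was the highest member in 9 of 10 libraries. In the other library, Tomato- replicate 5, Mef2c was the highest. No other neighbours in this order differed by more than the larger of their SDs, and the order after Nfe2 rests on single libraries. By the median over 10 libraries, Fli1 was second (13.5 CPM per kb), followed by Runx1 (1.29), Gfi1b (1.06) and Mafg (0.956). Without Tomato- replicate 5 the mean of Mef2c was 1.76 CPM per kb, the ninth of the 10. Joined exon lengths include alternative exons and ran from 1.80 kb for Lyl1 to 15.7 kb for Mef2c, so the order of long genes depends on them.

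The comparison of the fractions asks whether platelets with and without the reporter carry different amounts of these transcripts. Of the 10 members, 7 passed the default filter on low counts and were tested with edgeR among 1016 genes. None of the 7 was called at an adjusted p under 0.05, and 0 of all genes tested were (0.0%); 9 genes had an unadjusted p under 0.05, none of them a member. DESeq2 called 1 gene, and limma voom 1 without and 2 with the replicate number as a block, none of them a member.

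Nfe2, which had the narrowest interval, averaged 1031 ± 477 CPM with the reporter and 800 ± 586 CPM without it. The log2 fold change of Nfe2, Tomato+ over Tomato-, was 0.59 (SE 1.17, 95% interval -1.90 to 3.08, edgeR adjusted p = 0.9996). Without Tomato- replicate 5, where it was at 0, the log2 fold change was 0.28 and the interval -1.06 to 1.62.

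For the other 6 tested members the 95% intervals of the log2 fold change were wide, with lower ends between -10.08 and -2.92 and upper ends between 3.18 and 9.81. Gfi1b had 86.6 ± 110 and 7.70 ± 15.1 CPM, with a log2 fold change of 3.45 (SE 2.997). Mef2c had 20.2 ± 36.1 and 285 ± 559 CPM, with -3.45 (SE 3.12), and with -0.59 when Tomato- replicate 5 was left out. Fli1 had 64.6 ± 49.6 and 30.4 ± 42.1 CPM, Runx1 61.5 ± 63.9 and 35.0 ± 62.4 CPM, Tal1 52.8 ± 71.9 and 40.2 ± 58.1 CPM, and Mafg 40.5 ± 56.1 and 22.9 ± 47.4 CPM. Their log2 fold changes were 1.06 (Fli1), 0.83 (Runx1), 0.41 (Tal1) and 0.88 (Mafg), each with an SE between 2.56 and 2.80. Leaving out Tomato- replicate 3 lowered the Tomato- mean to 0.970 CPM for Gfi1b, 7.74 CPM for Runx1, 16.6 CPM for Fli1, 18.5 CPM for Tal1 and 1.78 CPM for Mafg. The log2 fold changes were then 6.66 (Gfi1b), 3.08 (Runx1), 1.996 (Fli1), 1.62 (Tal1) and 4.75 (Mafg). That of Tal1 was -0.42 without Tomato+ replicate 2, and that of Mafg was -0.29 without Tomato+ replicate 4. In the fit of all 10 libraries each of the 6 members had an edgeR adjusted p of 0.9996.

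**Figure D3:**
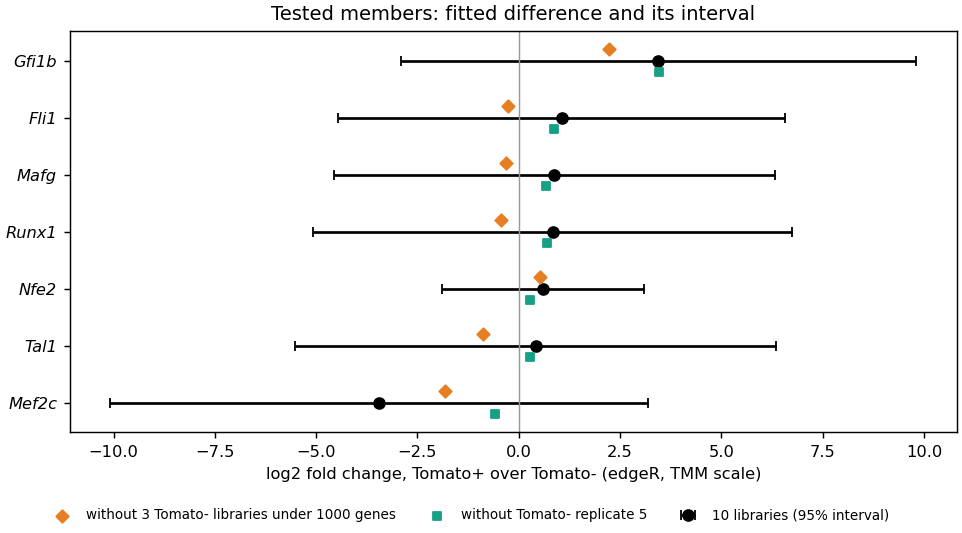
Log2 fold change of the 7 tested members with its 95% interval (edgeR, 10 libraries, black), without Tomato- replicate 5 (green squares) and without the 3 Tomato- libraries under 1000 genes (orange diamonds). Every interval includes 0, and the orange points of Fli1, Mafg, Runx1 and Tal1 lie on the other side of 0.

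A higher estimate in Tomato+ was found for 6 of the 7 tested members, against 58.3% of all genes tested, with a median log2 fold change of 0.83 against 0.21. Without the 3 Tomato- libraries under 1000 genes, 9 members could be tested, 2 of them had a higher estimate, and their median was -0.45 against -0.01 for 2157 genes. The direction of Fli1, Mafg, Runx1 and Tal1 thus turned with the libraries used.

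The members had 27 detections in Tomato+ and 22 in Tomato-, of 50 possible in each. In all, 7 members were detected in more Tomato+ than Tomato- libraries (46.9% of 4428 genes with counts in 1 to 9 libraries) and 3 in fewer (35.0%). Fli1 had the largest gap, 4 libraries against 2 (two-sided Fisher exact p = 0.524, adjusted p = 1). The other 9 members differed by 1 library each (Fisher exact p = 1). Over the 4428 genes the test called 0 (0.0%), with 13 at an unadjusted p under 0.05, and the smallest p that 5 against 5 libraries allow is 0.00794. An exact permutation of log2(CPM + 1) over 252 assignments called 0 of 4692 genes (0.0%), with 65 at an unadjusted p under 0.05. Its smallest possible p is also 0.00794, so for both tests a count of 0 after adjustment over this many genes is close to fixed by the design. The fractions did not overlap for 0 of the 10 members and for 0.149% of those genes.

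The 3 genes whose profile over the 10 libraries was nearest to that of Nfe2 were Sepw1, Tuba4a and Mmd. Nearness is the root mean square difference between log2(CPM + 1) profiles, each centred on its own mean, over 562 genes with counts in at least 8 libraries. It was 0.70 for Sepw1, a selenoprotein gene, 0.75 for Tuba4a, an alpha tubulin gene, and 0.87 for Mmd, with a median of 3.28 over all genes compared. All 3 were at 0 in Tomato- replicate 5 and present in the other 9 libraries, as Nfe2 was. Nearness was measured over all 10 libraries, so a gene near to Nfe2 had to share this drop. The shared 0 follows from the selection and is not a separate result. Mmd had 1924 to 6850 CPM in those 9. Of 133 genes with counts in exactly 9 libraries, 35 were missing from Tomato- replicate 5, 36 from replicate 1 and 37 from replicate 2.

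**Figure D4:**
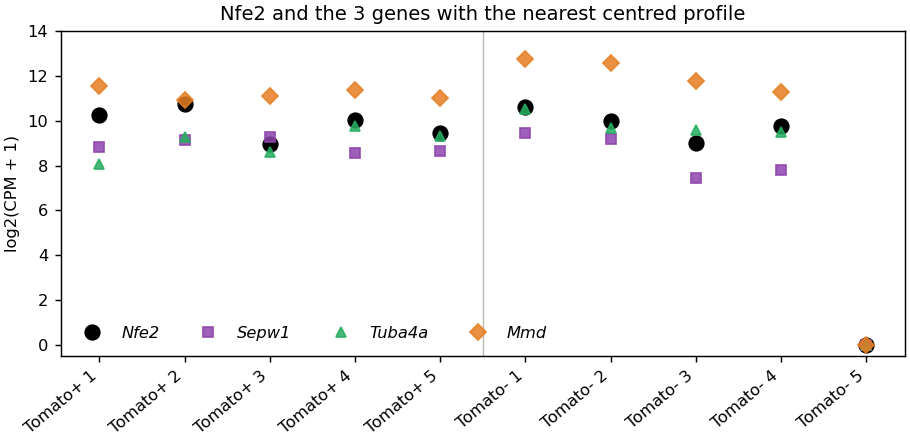
log2(CPM + 1) of Nfe2 (black circles) and of Sepw1, Tuba4a and Mmd in the 5 Tomato+ and 5 Tomato- libraries. All 4 genes are at 0 in Tomato- replicate 5, and Nfe2 lies between 498 and 1722 CPM in the other 9.

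Partners and cofactors of the members were at 0 or in 1 library for 30 of the 37 in the table (81.1%), against 88.5% of all 23420 genes listed. Of the 37, 19 had no count in any library, 11 had counts in 1 library, 4 in 2 and 3 in 3 or more. Those at 0 throughout include Cbfb, the partner of RUNX1, Lmo2, which bridges TAL1 and GATA1, Mafk, another small Maf, and Erg, an ETS factor close to FLI1. Elf1, an ETS factor, was the most regular, with counts in 3 libraries of each fraction (36.6 ± 46.9 and 104 ± 153 CPM). It was the 1 partner tested, with a log2 fold change of -1.11, and 0 were called.

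The next most abundant partners were each confined to 1 library. Mef2d had 635 CPM in Tomato- replicate 5, the library in which its relative Mef2c had 1279 CPM, and 0 in the other 9. Mef2a, a further relative, had 436 CPM in Tomato- replicate 1 alone, where Mef2c was at 0. Hhex, a homeobox gene, had 445 CPM in Tomato+ replicate 3 alone. The sums over the 37 partners were 172 ± 160 CPM with the reporter and 380 ± 173 CPM without it, and ranged from 36.6 to 635 CPM by library.

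Genes known as targets of these factors in megakaryocytes largely repeat the platelet markers, with 14 of the 21 on both lists. Of the 21, 16 had counts in all 10 libraries and Casp12 alone had none. Their sum was 82049 ± 4941 CPM with the reporter and 88291 ± 5900.2 CPM without it. The 3 most abundant were Ppbp and Pf4, which encode platelet chemokines (19122 ± 2631 and 17267 ± 4049 CPM, and 10851 ± 1105 and 11690.0 ± 2587 CPM, Tomato+ first), and Myl9, a myosin light chain gene (10047 ± 2556 and 11311 ± 2045 CPM). Among the 19 targets tested the estimate was positive for 12 and negative for 7, and 0 were called. Ppbp was among the 9 genes with an unadjusted p under 0.05. The median log2 fold change was 0.10, against 0.21 over all genes tested. Tubb1, the platelet beta tubulin that NF-E2 controls, had 3715 ± 1720.5 and 3543 ± 1592 CPM. It had 2215 CPM in Tomato- replicate 5, where Nfe2 was at 0, and is named after its values were seen. The list was mixed in that library, as Rab27b, Tbxas1, Prkcq and Selp, each found in other libraries, were at 0 there. All 4 were also at 0 in libraries that held Nfe2. Rab27b was at 0 in Tomato+ replicate 2 (Nfe2 at 1722 CPM). Tbxas1 was at 0 in Tomato- replicate 1 (Nfe2 at 1573 CPM), and Prkcq in Tomato- replicates 1 and 2. Selp had counts in only 1 library of each fraction. A link of these levels to Nfe2 was not tested.

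Several members are also used by white blood cells and endothelium, whose markers were read in the same libraries. Ptprc, the general leukocyte marker, had counts in Tomato- replicate 4 alone (1.23 CPM). Laptm5 had 1103 ± 692 and 1605 ± 386 CPM and was the most abundant of its list, with Cd52 next (15.8 CPM in Tomato- replicate 4 alone). Coro1a, of the same list, was at 0 throughout. Among neutrophil and monocyte markers Lyz2 had 7672 ± 1117 and 7857 ± 1189 CPM, and S100a9 had 240 CPM in Tomato+ replicate 3 alone. Of the 9 such markers in the table only 3 had any count. S100a8, Elane, Mpo, Csf1r, Cd14 and Ccr2 were at 0 throughout. Hdc, the 1 mast cell and basophil marker found, had 40.6 CPM in Tomato+ replicate 5 and 63.0 CPM in Tomato- replicate 4, the 2 libraries with the most Gata1. Of T and NK cell markers only Nkg7 was found, at 20.7 CPM in Tomato- replicate 4. The endothelial markers Tie1 and Plvap had 48.7 ± 64.5 and 120 ± 71.6 CPM, and 72.1 ± 127 and 48.1 ± 65.8 CPM. Kdr was found in Tomato- replicate 4 alone (64.4 CPM), and Cdh5, Emcn and Tek were at 0 throughout. The part of these cells in the members' counts was not tested.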

How the data were processed

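The values deposited by the authors are whole-number counts for each gene symbol in 10 libraries, not normalized. Per the submitters' processing notes, Trimmomatic, FastQC, STAR, featureCounts and mm10 were used. Gene annotation, strand setting and treatment of multi-mapped reads: not given in the sources used here, so reads of overlapping genes cannot be told apart. Members and lists were chosen with earlier results of these data known.

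CPM used all rows as the library total. Reads carry no molecular identifiers in these counts, so intervals and limits of 3 counts cover counting error only. The test of each gene was that of edgeR 4.0.16 under R 4.3.3, by quasi-likelihood with robust dispersions and TMM scaling (default filter with minimum count 10 and minimum total 15, group as sole term) and Benjamini-Hochberg adjustment over all genes tested at 0.05. The SE is the log2 fold change divided by the root of its F statistic. Detection was compared with two-sided Fisher exact tests, adjusted over 4428 genes. DESeq2 1.42.0 and limma 3.58.1 (voom) were alternatives. All 45 library pairs differed by more than counting noise (chi-square of 509.5 or more per degree of freedom).

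Exon lengths, coordinates and exon overlaps came from GENCODE M21 (GRCm38, the assembly of mm10), in which 21777 of 23420 symbols matched. Promoter windows came from RefSeq. Genes named besides the members are the 3 most abundant of each list (2 for other cell types), the 3 nearest to each member with counts in at least 8 libraries, and genes that share exons with a member. Any other gene named, such as the lists' members at 0, was chosen after its values were seen.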

Additional observations from a re-analysis of the deposited data

Results flagged for a closer look

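In 10 of 23 sets of 5 values checked, 1 library stood apart from the other 4 by more than Dixon's critical value of 0.71 of the range. The rate of about 1 in 20 that chance gives is for values without ties. Each of the 10 sets held tied zeros, so that rate applies to none of them. The sets of Gata1 in Tomato-, Zfpm1 in Tomato- and Lyl1 in Tomato+ were 4 zeros and 1 other value. In all 10 sets the library that stood apart was the high one. Gata1 stood out at 46.7 CPM in Tomato+ replicate 5 and at 62.4 CPM in Tomato- replicate 4. Lyl1 stood out at 11.5 CPM in Tomato+ replicate 5 and at 31.3 CPM in Tomato- replicate 3. Tomato- replicate 3 was also the high library for Zfpm1 (0.852 CPM), Runx1 (144 CPM), Gfi1b (34.6 CPM) and Mafg (107 CPM). Mef2c stood out at 83.2 CPM in Tomato+ replicate 2 and at 1279 CPM in Tomato- replicate 5. The sums over the 10 members and the numbers of members detected had no such library in either fraction.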

How the results depend on the processing

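The count of 0 genes called by edgeR held with total-count scaling, without a filter on low counts and with the replicate block. It also held without any 1 library and without the 3 libraries under 1000 genes. Without the filter, 1764 of 4692 genes had an unadjusted edgeR p under 0.05, against 9 of 1016 in the main fit. The p-values of these 2 fits are thus not alike, and the 0 without the filter is a weak check. DESeq2 called 1 gene (Tug1), limma voom 1 (Ctla2a) and limma voom with the replicate block 2 (Rn45s and Fth1). Of the tested members 6 had a higher estimate in Tomato+, 5 to 6 with 1 library left out, and 2 of 9 without the 3 libraries under 1000 genes. Without those 3 libraries the log2 fold changes of Tal1 (-0.88), Runx1 (-0.45), Fli1 (-0.27) and Mafg (-0.32) turned negative. That of Tal1 was -0.42 without Tomato+ replicate 2 and that of Mafg -0.29 without Tomato+ replicate 4. The cause was not tested, beyond the fewer libraries used. With 1 library left out in turn, the log2 fold change of Tal1 ran from -0.42 to 1.62, that of Mafg from -0.29 to 4.75, that of Runx1 from 0.30 to 3.08 and that of Fli1 from 0.66 to 1.996. Those of Nfe2 (0.28 to 0.99), Gfi1b (2.80 to 6.66) and Mef2c (-5.83 to -0.59) kept their sign with each library left out. At 10 counts, Gata1 was detected in 1 Tomato+ library, Mafg in 2 Tomato- libraries in place of 3, and Zfpm1 in 0 libraries. Gata1 was then in 1 library of each fraction, no longer in more Tomato+ than Tomato- libraries. With 1 library left out, the mean summed CPM of the members was 1177 to 1584 for Tomato+ and 1156 to 1294 for Tomato-. No label says what the replicate numbers mark, so they were not taken as pairs. Deviations of same-numbered libraries had r of -0.11 to 0.12 over 5 pairs, across genes, which are not independent. Those of other pairs of a Tomato+ and a Tomato- library had r of -0.19 to 0.16. With many genes at 0 in single libraries, these values cannot settle whether the numbers mark pairs. The edgeR fit with the replicate block called 0 genes. All 10 members had libraries at 0, where a level up to the limit of 3 counts was not detectable.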
